A study of Mus musculus with 7 samples.

Results

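The genes described here are 10 well-known transcriptional targets of p53, the tumor suppressor protein made from Trp53, measured in mouse glioma by bulk RNA-Seq. They are Cdkn1a, Mdm2, Ccng1, Bax, Bbc3, Sesn2, Eda2r, Trp53inp1, Zmat3 and Phlda3, taken by gene symbol from a table of normalized counts, in which all 10 were present among 19257 genes. The tumors arose after plasmids were electroporated in utero into the progenitors that line the lateral ventricles, on CD-1 and C57BL/6 backgrounds. In both groups the plasmids carried Cas9, guides against tumor suppressors that include Trp53 and Nf1, and a piggyBac transposon that labelled the cells. The 3 tumors called 3xCR (replicates 2, 3 and 4) had nothing further, and the 4 tumors called GPC6 (replicates 1 to 4) also carried GPC6 for overexpression on the transposon, a cell surface proteoglycan of the glypican family. Each library came from 1 brain at the endpoint of disease, and the sources used here give neither age nor sex for these animals. Only the electroporated cells and their progeny received the guides, and the tissue also held neurons, glia and immune cells that did not. Bulk RNA cannot tell fewer cells of a type from less RNA per cell. A tumor with intact p53, or a normal brain, was not part of the comparison.

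p53 is kept scarce in unstressed cells because Mdm2, which is itself a p53 target, marks it for degradation. DNA damage and oncogene activity stabilize it, and it then binds response elements near its target genes and raises their transcription. The products of these targets stop the cell cycle (Cdkn1a), start apoptosis (Bax, Bbc3), limit growth under metabolic stress (Sesn2) or return to restrain p53 and its signalling (Mdm2, Ccng1). Loss of Trp53 is common in glioma, and the RNA of its targets is a usual readout of p53 function. All of these genes can also be transcribed without p53, for example when other stress pathways are active.

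The response element of p53 is made of a pair of 10-base blocks, each of which follows the p53 half-site consensus (its own reverse complement), with few or no bases between them. Promoter windows from RefSeq (GRCm38.p6; 250 bases before the start site and 50 after) existed for 8 of the 10 genes and gave 11 windows, with none for Trp53inp1 and Zmat3. A window was counted when it held both blocks, read on either strand, with the C and the G of each core present, at most 2 mismatches in all and a spacer of 0 to 13 bases. Cdkn1a, Ccng1 and Bax had such a match, which is 3 of 8 genes, against 4.62% of the 11173 genes tested that had a window and 4.09% of all 32851 windows. The matches are shown because they are the kind of sequence that p53 binds, 5′ to 3′ on the strand of the gene, with the core of each block in capitals.
Cdkn1a: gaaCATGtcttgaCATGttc
Ccng1: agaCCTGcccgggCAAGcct
Bax: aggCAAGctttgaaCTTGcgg

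The Cdkn1a sequence lies at chr17:29090928-29090947 on the plus strand of GRCm38.p6, 51 to 32 bases before the upstream one of its start sites, has no spacer and has 1 mismatch. Its first block is also the second block of a match with a spacer of 12 bases and 0 mismatches, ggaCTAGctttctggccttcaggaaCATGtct, so these overlap. Ccng1 (chr11:40755462-40755481, minus strand, no spacer, 1 mismatch) has its match 195 to 176 bases before the start site. In Bax (chr7:45467079-45467099, minus strand, spacer of 1, 2 mismatches) it lies 201 to 181 bases before the start site. The best pair in a window of Bbc3 had 3 mismatches, that of Mdm2 had 4, and those of Phlda3, Sesn2 and Eda2r had 5, 6 and 6. These letters describe the windows only, since response elements can lie outside them, and binding of p53 was not measured.

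Reads counted on genes numbered 7197692 to 18879762 per library, and a count of 0 allowed 1.64 to 4.64 normalized counts, a limit that covers counting error only. For the comparison limma was fitted to log2(normalized count + 1) of 14782 genes, those whose mean over the libraries reached 10, and all 10 p53 targets were among them. Fold changes are GPC6 minus 3xCR on that scale, and the added 1 makes them too small for genes with few reads. Trp53, 1 of the genes the guides aimed at, had 231, 370 and 789 normalized counts in 3xCR replicates 2, 3 and 4, against 291, 309, 739 and 568 in GPC6 replicates 1 to 4. An edited transcript can still be counted, so these values do not measure loss of the protein. Gpc6 had 126 to 226 normalized counts in the 3xCR group and 675, 263, 3434 and 5084 in GPC6 replicates 1 to 4. The library labelled GPC6 replicate 2 therefore lay close to the 3xCR level. Y-linked genes (Ddx3y, Eif2s3y, Kdm5d and Uty together) had 1218 and 1675 normalized counts in GPC6 replicates 1 and 2 and at most 2 reads in the other 5 libraries. GPC6 replicate 1 also stood apart in proliferation genes, as Mki67 had 130 normalized counts there and 950 to 1876 elsewhere. All 15 markers of proliferating cells had their lowest value in that library (summed level 960, against 7090 to 17978 in the other 6).

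No p53 target passed the test between GPC6 and 3xCR tumors. At an adjusted p under 0.05 (limma with Benjamini-Hochberg adjustment over all genes) there were 0 of 10, where the share over all genes tested was 0.0%, and the smallest adjusted p among the targets was 0.730. Without adjustment, 0 of 10 had a p under 0.05, where 4.66% of all genes tested passed (2.74% with a higher and 1.92% with a lower value in the GPC6 group). On the recovered reads, DESeq2 and edgeR likewise had 0 of 10 at an adjusted p under 0.05 (0.0209% and 0.0% of all genes) and each had 1 at an unadjusted p under 0.05, Trp53inp1. The mean log2 value was lower in GPC6 tumors for 7 of the 10 and higher for Cdkn1a, Mdm2 and Zmat3, where 51.7% of all genes tested were lower and 48.3% higher. The median log2 fold change was -0.39 over the 10 genes and -0.019 over all genes tested. Without 3xCR replicate 4 these medians were -0.20 and -0.012, and with library weights they were -0.10 and -0.048. The groups did not overlap in 1 gene, Bax, which was lower in every GPC6 library, where 6.32% of all genes tested did not overlap (3.52% lower and 2.8% higher). Cell type markers also differed in direction between the groups. Of the neuron markers 10 of 10 were higher in GPC6 tumors (median log2 fold change 1.66), while 6 of 7 microglia, 6 of 6 macrophage and 6 of 6 T cell markers were lower (medians -0.41, -0.94 and -1.19), with 0 past adjustment in any of these lists. Without 3xCR replicate 4 the macrophage and T cell counts were 4 of 6 and 5 of 6 (medians -0.30 and -0.50), and without GPC6 replicate 1 the neuron count was 9 of 10 (median 0.97).

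**Figure D1:**
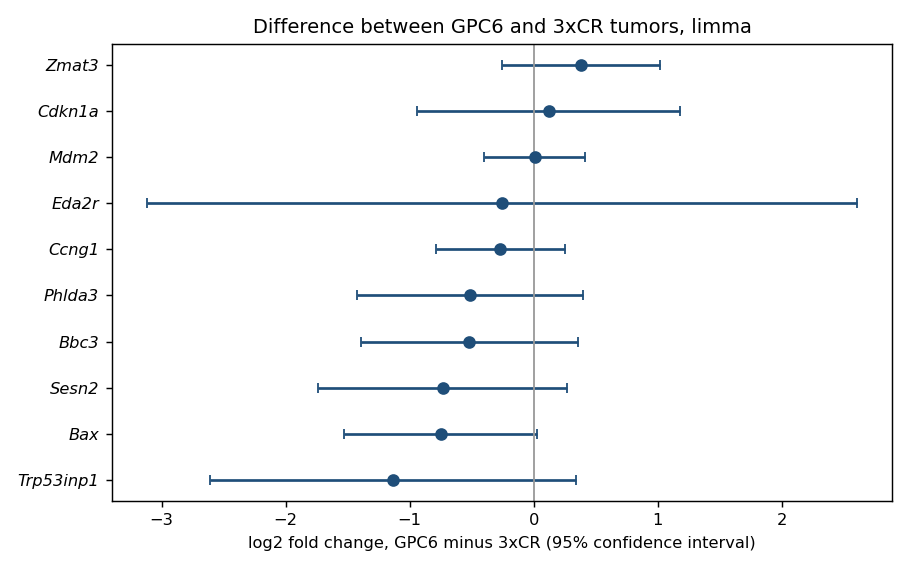
Difference of mean log2 values, GPC6 minus 3xCR (horizontal axis), of the 10 p53 target genes (vertical axis), with 95% confidence intervals from limma (3 and 4 tumors). All 10 intervals include 0, from the narrowest, Mdm2 (-0.40 to 0.42), to the widest, Eda2r (-3.12 to 2.61).

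Cdkn1a encodes p21, an inhibitor of cyclin-dependent kinases and the main effector of cell cycle arrest by p53. It lies on chromosome 17 of GRCm38 (29090976 to 29100727). Its normalized counts were 360, 603 and 696 in 3xCR replicates 2, 3 and 4, against 1036, 297, 794 and 458 in GPC6 replicates 1 to 4. The highest and the lowest of the 7 values were both in GPC6 tumors, and the 3xCR values lay between them. The means were 553 ± 173 (SD, n = 3) and 646 ± 332 (SD, n = 4), with a log2 fold change of 0.12 (standard error 0.46, 95% confidence interval -0.94 to 1.18, limma adjusted p = 0.947). The interval allows Cdkn1a to have been up to 1.18 higher or 0.94 lower on the log2 scale in GPC6 tumors. The sign rested on single libraries, as the value was -0.16 without GPC6 replicate 1, -0.16 without 3xCR replicate 2 and -0.033 without GPC6 replicate 3. The GPC6 replicate 1 tumor, with the highest Cdkn1a, was the one with the lowest proliferation markers given above. The other 6 did not follow such an order, as 3xCR replicate 2 had the second lowest value of both Cdkn1a (360) and Mki67 (950 normalized counts). The part of tissue composition in this was not tested.

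Ccng1 encodes cyclin G1, which recruits a phosphatase to Mdm2 and so helps to restrain p53. The gene is on chromosome 11 (40748552 to 40755311). It was at 803, 1104 and 1091 normalized counts in 3xCR replicates 2, 3 and 4, against 827, 661, 811 and 1024 in GPC6 replicates 1 to 4, so the groups overlapped. The log2 fold change was -0.27 (standard error 0.23, 95% confidence interval -0.79 to 0.25, limma adjusted p = 0.749). Ccng1 varied little, with a 1.67-fold range over the 7 tumors.

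Mdm2 encodes the ubiquitin ligase that targets p53, and is the core of its negative feedback. It is on chromosome 10 (117688875 to 117710758 of GRCm38). It had 543, 571 and 533 normalized counts in 3xCR replicates 2, 3 and 4, against 490, 572, 564 and 584 in GPC6 replicates 1 to 4. No other gene of the 10 was as even, and the highest value was 1.19 times the lowest. The means were 549 ± 19.7 (SD, n = 3) and 553 ± 42.6 (SD, n = 4), a log2 fold change of 0.0063 (standard error 0.18, 95% confidence interval -0.40 to 0.42, limma adjusted p = 0.993). Its sign depends on the scaling, as it was -0.039 after scaling to an equal upper quartile and -0.0017 with edgeR. The standard deviation of its log2 values over the 7 libraries was 0.087, and 0.244% of all genes tested had a smaller one. Among the 5834 genes tested whose mean was within 2-fold of that of Mdm2, the share with a smaller standard deviation was 0.360%. The RNA of Trp53, whose product controls this gene, was uneven over the same tumors, as its values above show. That RNA does not measure the p53 protein or its activity, and a link to the level of Mdm2 was not tested.

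Bax, a pore-forming protein of the outer mitochondrial membrane that executes apoptosis, gave the clearest separation. It lies on chromosome 7 (45461697 to 45466898). Its normalized counts were 1024, 1093 and 1311 in 3xCR replicates 2, 3 and 4, against 365, 916, 718 and 863 in GPC6 replicates 1 to 4. Every GPC6 tumor was below every 3xCR tumor, and GPC6 replicate 1 was far below the rest. The means were 1143 ± 150 (SD, n = 3) and 715 ± 248 (SD, n = 4), a log2 fold change of -0.75 (standard error 0.34, 95% confidence interval -1.53 to 0.029). Bax did not pass limma (unadjusted p = 0.057, adjusted p = 0.730), and it was number 838 of all genes in order of p. Without GPC6 replicate 1 the log2 fold change was -0.46. When limma weighted each library by its own scatter (arrayWeights), it was -0.61 and passed (adjusted p = 0.037), in a fit that called 13.3% of all genes tested, or 34.5% at an unadjusted p under 0.05. The annotated exons of Bax share 192 bases with those of Gm45808 on the same strand, which the table does not list.

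Bbc3 encodes Puma, which sets off apoptosis by binding the survival proteins of the Bcl2 family. It is also on chromosome 7 (16308393 to 16318205). It had 123, 117 and 211 normalized counts in 3xCR replicates 2, 3 and 4, against 64.9, 98.8, 106 and 152 in GPC6 replicates 1 to 4. Its ends were the same as those of Bax, 3xCR replicate 4 at the top and GPC6 replicate 1 at the bottom. The log2 fold change was -0.52 (standard error 0.38, 95% confidence interval -1.39 to 0.36, limma adjusted p = 0.734). It was -0.25 without 3xCR replicate 4, -0.31 without GPC6 replicate 1 and -0.19 with library weights.

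Eda2r, a receptor of the tumor necrosis factor receptor family that binds ectodysplasin A2, was the most variable. It lies on the X chromosome (97333840 to 97377216 of GRCm38). It had 18.1, 36.3 and 38.7 normalized counts in 3xCR replicates 2, 3 and 4, against 3.09, 7.90, 128 and 89.5 in GPC6 replicates 1 to 4. The GPC6 group was split, with 2 libraries below and 2 above the whole 3xCR range. The values in GPC6 replicates 1 and 2 rested on 2 and 8 reads (exact Poisson 95% intervals 0.374 to 11.2 and 3.41 to 15.6 normalized counts, counting error only). The standard deviation of its log2 values was larger than that of 95.4% of all genes tested. The log2 fold change, -0.25 by limma with a 95% confidence interval of -3.12 to 2.61 (adjusted p = 0.960), had no stable sign. It was 0.90 with DESeq2, 0.88 with edgeR and 0.064 with voom. The low values were in the tumors with reads of Y-linked genes, and the high values in those with the most Gpc6 reads, GPC6 replicates 3 and 4. In the 5 tumors with at most 2 Y-linked reads, a comparison added after seeing the data, Eda2r was higher in both GPC6 tumors than in all 3 of the 3xCR group. Its log2 fold change was 1.83 there (limma, unadjusted p = 0.011, adjusted p = 0.771), and it was the 1 target of 10 at an unadjusted p under 0.05, where 6.09% of all genes tested passed. The level of Gpc6 and the Y-linked reads cannot be told apart among the 4 GPC6 tumors, since the pair with fewer Gpc6 reads was the pair with Y-linked reads.

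Trp53inp1, a nuclear protein that promotes p53-dependent death and autophagy, had the largest fold change. It is on chromosome 4 (11156431 to 11174379). Its normalized counts were 285, 227 and 1387 in 3xCR replicates 2, 3 and 4, against 216, 337, 132 and 177 in GPC6 replicates 1 to 4. A single tumor, 3xCR replicate 4, was 4.12 times the next highest, and the other 6 overlapped. The means were 633 ± 653 (SD, n = 3) and 216 ± 87.9 (SD, n = 4), a log2 fold change of -1.14 (standard error 0.64, 95% confidence interval -2.61 to 0.34, limma adjusted p = 0.730). Without 3xCR replicate 4 it was -0.32. DESeq2 gave -1.54 (unadjusted p = 0.024, adjusted p = 0.424) and edgeR -1.55 (unadjusted p = 0.045, adjusted p = 0.603), at a share of 9.7% and 6.7% of all genes tested.

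Sesn2 encodes sestrin 2, which lowers mTORC1 activity under oxidative or nutrient stress and is also induced by stress pathways other than p53. It is on chromosome 4 as well (132492032 to 132510501). It was at 324, 334 and 761 normalized counts in 3xCR replicates 2, 3 and 4, against 181, 244, 481 and 219 in GPC6 replicates 1 to 4. Again 3xCR replicate 4 was the highest and GPC6 replicate 1 the lowest, and GPC6 replicate 3 lay above the other 3xCR tumors. The log2 fold change was -0.73 (standard error 0.44, 95% confidence interval -1.74 to 0.27, limma adjusted p = 0.730), -0.33 without 3xCR replicate 4 and 0.23 with library weights.

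Phlda3, which competes with Akt for membrane lipids and so dampens Akt signalling, had 285, 389 and 641 normalized counts in 3xCR replicates 2, 3 and 4, against 402, 353, 300 and 166 in GPC6 replicates 1 to 4. It is on chromosome 1 (135766119 to 135769136). The lowest value was in GPC6 replicate 4 and the highest in 3xCR replicate 4. The log2 fold change was -0.51 (standard error 0.39, limma adjusted p = 0.739) and -0.20 without 3xCR replicate 4. Zmat3, an RNA-binding zinc finger protein whose gene is on chromosome 3 (32334792 to 32366014), ran the other way in these tumors. It had 536, 525 and 343 normalized counts in 3xCR replicates 2, 3 and 4, against 652, 435, 580 and 773 in GPC6 replicates 1 to 4. Here 3xCR replicate 4 was the lowest of the 7, and the groups overlapped through GPC6 replicate 2. Its log2 fold change was 0.38 (standard error 0.27, 95% confidence interval -0.25 to 1.01, limma adjusted p = 0.732), and 0.17 without 3xCR replicate 4.

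**Figure D2:**
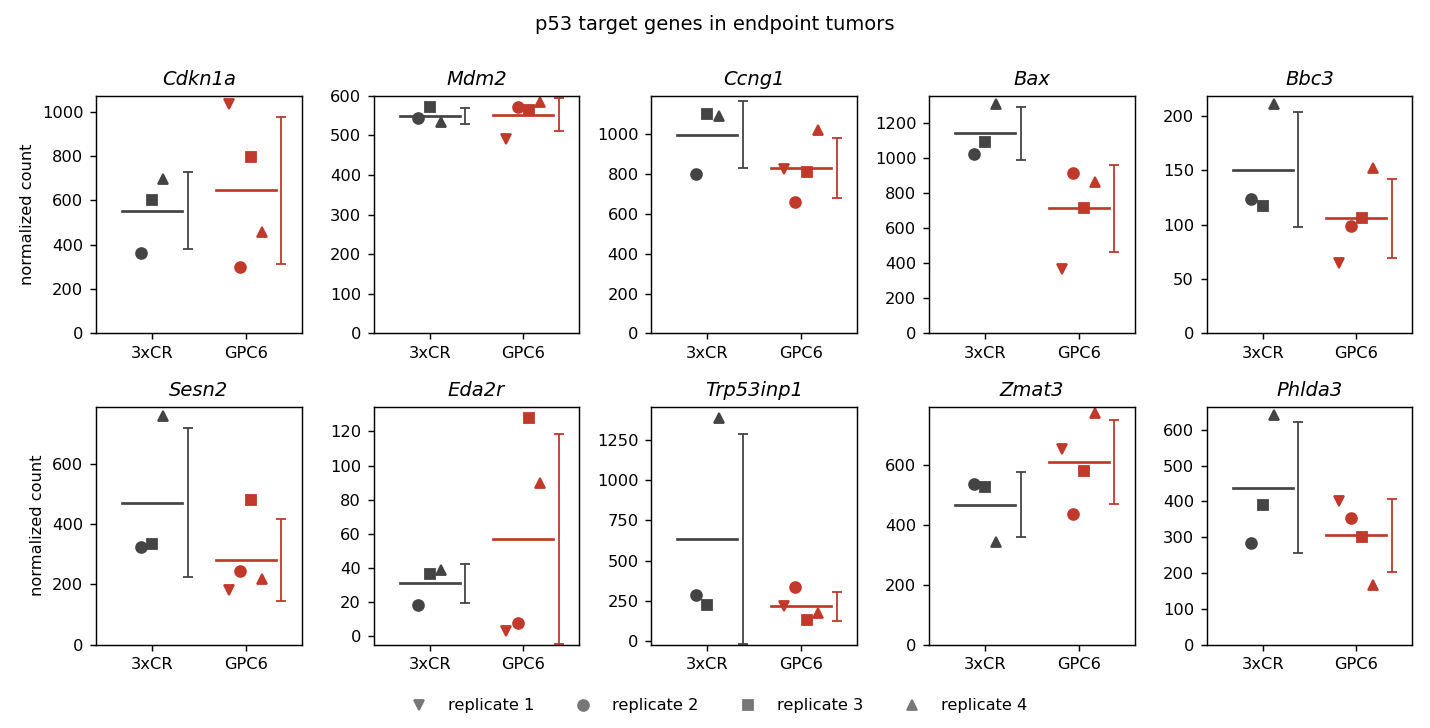
Normalized counts (vertical axes, linear) of each p53 target gene in the 3 libraries of the 3xCR group (dark) and the 4 of the GPC6 group (red), with symbols for replicate numbers, lines at the group means and bars of 1 SD. Only in Bax do the groups not overlap, Mdm2 stays between 490 and 584, and 3xCR replicate 4 stands at 1387 in Trp53inp1.

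Levels can be set against each other per length, as normalized counts per kilobase of annotated exon. On that scale Bax was the most abundant, at 570 ± 191 (SD, n = 7), followed by Ccng1 at 257 ± 48.4, Phlda3 at 232 ± 93.9 and Cdkn1a at 171 ± 73.2. Mdm2 and Sesn2 came next at 108 ± 6.34 and 105 ± 57.9, then Trp53inp1, Bbc3 and Zmat3 at 60.9, 58.8 and 48.0, and Eda2r was last at 7.79 ± 7.84. Most neighbours in this order could not be separated. Only Sesn2 above Trp53inp1 and Zmat3 above Eda2r held in all 7 libraries, and Bax was above Ccng1 in 6 of 7. Ccng1 was above Phlda3 in 4 of 7, and Trp53inp1 above Bbc3 in 3 of 7. The lengths count every annotated exon, which for Zmat3 is 11435 bases, so a gene that used a shorter transcript would have a higher level than given. On the same scale Bak1, the relative of Bax, had 401 per kilobase, and the survival gene Mcl1 had 560, close to Bax.

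**Figure D3:**
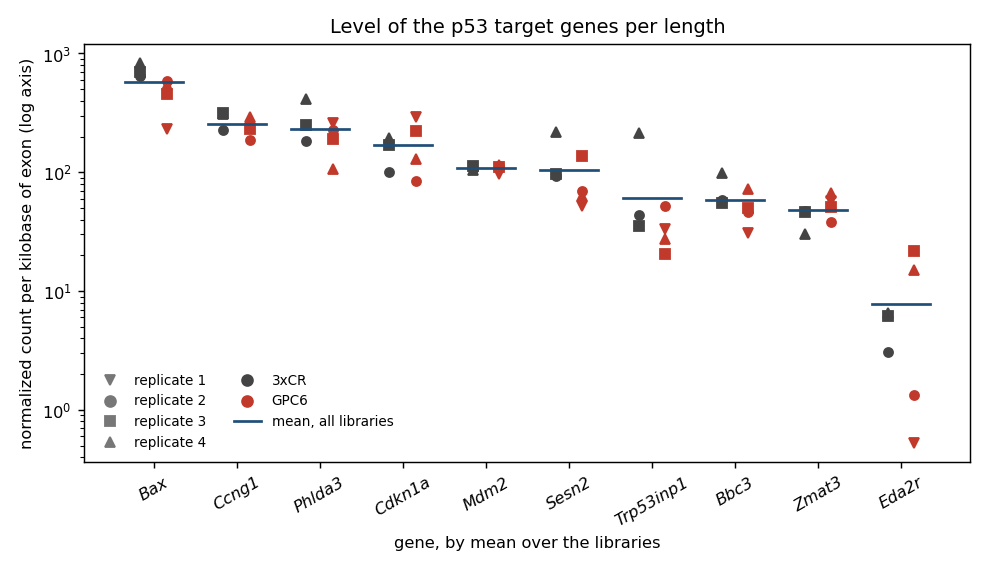
Normalized counts per kilobase of exon (log axis) of the p53 target genes in each library, ordered by the mean over all 7 (blue lines). Bax is at the top with a mean of 570, Eda2r is at the bottom with values from 0.525 to 21.7, and Mdm2 is the tightest.

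The 10 genes did not move as a block over the tumors. Their highest value was in 3xCR replicate 4 for 5 genes (Bax, Bbc3, Sesn2, Trp53inp1 and Phlda3), a library that was highest for 23.9% of all genes tested. Their lowest value was in GPC6 replicate 1 for 5 genes (Mdm2, Bax, Bbc3, Sesn2 and Eda2r), where it was lowest for 31.3% of all genes tested. Cdkn1a had its highest value in that same library, and Zmat3 its lowest in 3xCR replicate 4. Some markers of immune cells, though not all, were at their highest in 3xCR replicate 4. All 6 T cell markers had their top value there, and the summed level was 1308 normalized counts, against 308 and 337 in the rest of the 3xCR group and 275 to 344 in the GPC6 group. For macrophages and monocytes 3 of 6 markers had their top value there, and the sum was 33933, against 3263 and 8647 in the rest of the 3xCR group and 614 to 11201 in the GPC6 group. For microglia 3 of 7 markers had their top value there, and 1 had its lowest. The microglia sum was 16187, against 12420 and 15608 in the rest of the 3xCR group and 8078 to 11337 in the GPC6 group. No T cell, macrophage, microglia or neuron marker was at 0 in any library. In GPC6 replicate 1, 8 of 10 neuron markers were highest, with a sum of 52917 against 6502 to 9878 in the 3xCR group and 9306 to 27499 in the other GPC6 libraries. Also highest there were 5 of 5 choroid plexus, 4 of 4 ependymal, 4 of 8 oligodendrocyte and 4 of 7 astrocyte markers. Lowest there were 4 of 6 oligodendrocyte precursor, 5 of 6 T cell and 4 of 6 macrophage markers. The part of these cells in the values of the p53 targets was not tested.

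**Figure D4:**
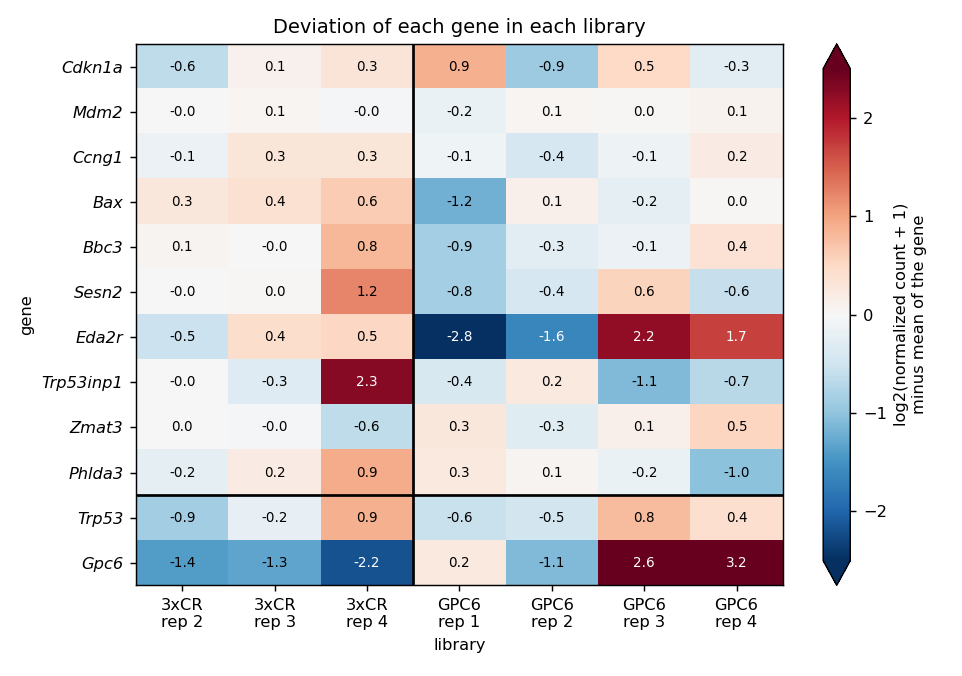
Log2(normalized count + 1) of each gene minus its mean over the 7 libraries (colour, limited to 2.5 in either direction), with the 10 p53 targets above the line and Trp53 and Gpc6 below it. 3xCR replicate 4 is high in Trp53inp1, Sesn2, Phlda3 and Bbc3, Mdm2 stays near 0, and Eda2r is low in GPC6 replicates 1 and 2 and high in 3 and 4.

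Of the genes tested, those whose profile over the 7 libraries was closest to that of Cdkn1a were Gprc5c, Wnt2, Anxa11, Umad1 and Per1. The root mean square difference of the centred log2 values was 0.18, 0.18, 0.19, 0.20 and 0.21, against a median of 0.78 over 14781 genes. These genes were picked as the smallest differences, so their place below the median was given by the choice. Gprc5c and Wnt2 had low counts, from 14.3 to 46.4 and from 8.89 to 29.4 normalized counts. Per1, a gene of the circadian clock, had 377, 625 and 631 normalized counts in 3xCR replicates 2, 3 and 4, against 1294, 239, 716 and 369 in GPC6 replicates 1 to 4. Other p53 targets were not among the closest. The nearest of the other 9 was Ccng1 (difference 0.55, with 12.9% of genes closer), and the farthest was Eda2r (1.73, with 96.4% closer).

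A longer list of 29 further p53 targets was read in the same fit, and all 29 were tested. None passed adjustment. In GPC6 tumors 17 were lower and 12 higher by mean log2 value, where 51.7% of all genes tested were lower. The median log2 fold change was -0.13. Of the 29, 1 was at an unadjusted p under 0.05, where 4.66% of all genes tested passed. It was Dcxr (log2 fold change -0.68, limma unadjusted p = 0.038, adjusted p = 0.730), an enzyme of sugar metabolism. Its normalized counts were 235, 213 and 262 in 3xCR replicates 2, 3 and 4, against 209, 118, 142 and 133 in GPC6 replicates 1 to 4, the only case of the 29 without overlap, where 3.52% of all genes tested were lower without overlap. Gdf15, a secreted stress factor, had the lowest fold change (-1.68, standard error 0.98), from 85.6 normalized counts in 3xCR replicate 4 and 54.1 in GPC6 replicate 3 to 4.64 in GPC6 replicate 1. The highest was that of Fbxw7, a ubiquitin ligase subunit that degrades cyclin E, at 0.85 (standard error 0.59), and Ei24, the most abundant, had 0.070. The highest value was in 3xCR replicate 4 for 12 of 29 and in GPC6 replicate 1 for 11 of 29 (23.9% and 31.3% of all genes tested), and the lowest was in GPC6 replicate 1 for 9 of 29 (31.3%). Without 3xCR replicate 4 the median log2 fold change of the list was 0.0004, with 15 higher and 14 lower.

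Upstream of p53, 14 of the 15 listed family members and regulators were tested, with 8 higher and 6 lower, a median log2 fold change of 0.028 and 0 past adjustment. Trp53bp1, a protein that binds p53 and chromatin at DNA breaks, was at 496, 472 and 341 normalized counts in 3xCR replicates 2, 3 and 4, against 810, 659, 640 and 778 in GPC6 replicates 1 to 4. The groups did not overlap, and among all genes tested that held for 6.32%. Its log2 fold change was 0.74 (standard error 0.22, limma unadjusted p = 0.0096, adjusted p = 0.730). It was the 1 gene of the 14 at an unadjusted p under 0.05, which 4.66% of all genes tested reached. The other gene without overlap was Usp7, a deubiquitinase of Mdm2 and p53 named after its values were seen, with 954 to 1226 normalized counts in the 3xCR and 1264 to 1621 in the GPC6 libraries. Cdkn2a, whose Arf product blocks Mdm2, was the most abundant of the list and had the lowest fold change (-1.40, standard error 0.78, limma adjusted p = 0.730), from 4134 normalized counts in 3xCR replicate 4 to 176 in GPC6 replicate 1. Without 3xCR replicate 4 the median of this list was -0.035, and without GPC6 replicate 1 it was 0.26 over the 13 that passed the filter. Trp63 was below the filter. Trp53 itself gave 0.11 on the log2 scale (95% confidence interval -1.03 to 1.26, limma adjusted p = 0.955).

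Among close relatives of the 10 genes, 7 of the 13 tested were higher and 6 lower, with a median log2 fold change of 0.023 (-0.11 without 3xCR replicate 4) and 0 past adjustment. Bak1, the relative of Bax, had the lowest value (-0.61, standard error 0.54), Trp53inp2, the most abundant, had -0.49, and Zmat4, a gene read mostly in GPC6 replicate 1 (481 normalized counts), had 2.06 (standard error 1.37). Sesn3, named after its values were seen, was the 1 gene of this list whose groups did not overlap (6.32% of all genes tested), with 343 to 389 normalized counts in the 3xCR and 438 to 505 in the GPC6 libraries. Among other Bcl2 family genes 8 of 10 tested were lower, where 51.7% of all genes tested were lower. Their median was -0.32 (-0.12 without 3xCR replicate 4). Mcl1, a survival protein and the most abundant, had -0.29, and Hrk, a neuronal activator of apoptosis, had 1.82 (standard error 0.96, limma adjusted p = 0.730). Hrk was high in GPC6 replicates 1 and 3 only (402 and 271 normalized counts). In GPC6 replicates 2 and 4 it had 31.6 and 72.0, within the 3xCR range of 13.8 to 75.6. Bcl2a1b had the lowest fold change of the other Bcl2 family genes, from a mean of 566 normalized counts in the 3xCR to 335 in the GPC6 group. It belongs to a group of near-identical genes between which the counting may have split reads.

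The G1 cyclins and kinases that p21 restrains were lower in GPC6 tumors in 8 of 8 genes (median log2 fold change -0.43), and so were 15 of 15 proliferation genes (median -0.58), where 51.7% of all genes tested were lower. In all 23 the lowest value was in GPC6 replicate 1, and 0 passed adjustment. The direction of the proliferation genes as a list, and of most of the G1 genes, rested on that library. Without it, 14 of 15 proliferation genes were higher in GPC6 tumors (median 0.30), as were 5 of 8 of the G1 genes (median 0.042), where 49.9% of all genes tested were lower. Ccnd2 had the lowest fold change (-1.23, standard error 0.47, limma unadjusted p = 0.031, adjusted p = 0.730), from 3652, 2770 and 4029 normalized counts in 3xCR replicates 2, 3 and 4 to 804, 3534, 1360 and 1183 in GPC6 replicates 1 to 4. Ccnd1, the most abundant, had -1.08, and Ccne1 had -0.20. Normalized counts of Ccnd1 were 8117, 9924 and 11424 in 3xCR replicates 2, 3 and 4, against 1298, 11769, 5546 and 5256 in GPC6 replicates 1 to 4. Both Ccnd1 and Ccnd2 were below every 3xCR value in GPC6 replicates 1, 3 and 4, so their direction did not rest on replicate 1 alone.

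**Figure D5:**
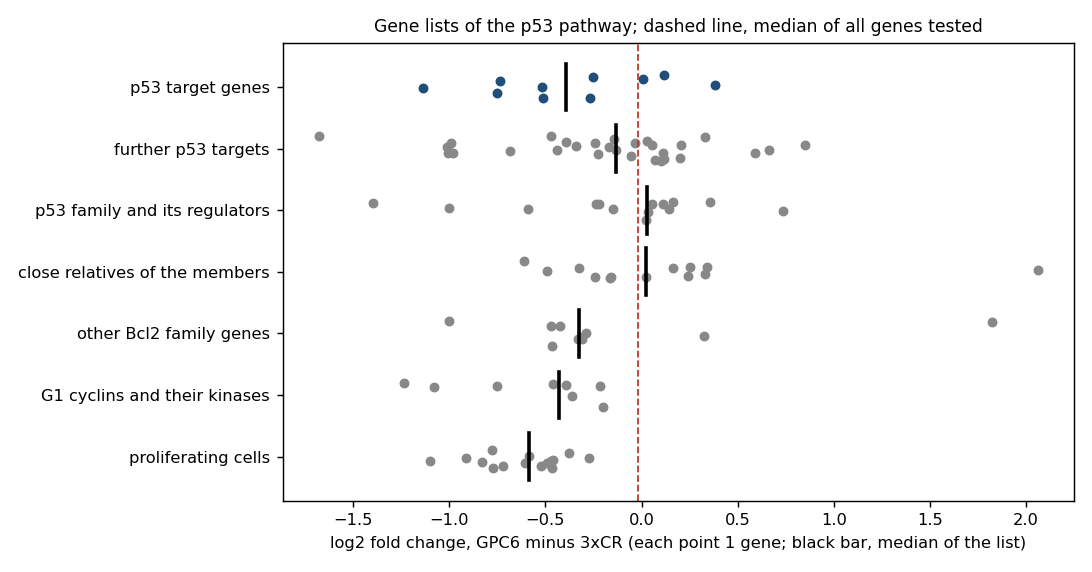
Log2 fold changes, GPC6 minus 3xCR (horizontal axis, 1 point per gene), for the 10 p53 targets and 6 related lists, with the median of each list as a black bar and that of all genes tested (-0.019) as a dashed line. The p53 targets spread from -1.14 to 0.38 around a median of -0.39, and the proliferation genes all lie below 0 (14 of 15 lie above 0 without GPC6 replicate 1).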

How the data were processed

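The 3 3xCR and 4 GPC6 libraries were made from endpoint tumor tissue with a stranded mRNA kit. The authors used STAR 2.5.0a with mm10 and normalized the counts per gene with DESeq2 1.20.0, so the deposited values are a linear normalized signal with no length correction. Whether counting used strand is not given in the sources used here. Of 19282 entries, 25 named as dates (0.254% to 0.361% of reads) were dropped. Each value was a whole number of reads times a constant of its library (100% within 0.01), so reads could be recovered, 7197692 to 18879762 per library. limma 3.58.1 (R 4.3.3) was the main, two-sided test on log2 values with a pseudocount of 1 and a trended variance, with Benjamini-Hochberg adjustment over 14782 genes. It was preferred to a count test because the file is normalized. DESeq2 1.42.0, edgeR 4.0.16 and voom were run on the recovered reads. All 4 tools were run on simulated counts with known changes, the same dispersion in every gene and no outlying library. That checks the code and does not measure their power in these tumors. The other alternatives changed the pseudocount, filter, scaling, variance, library weights, libraries or replicate block, giving 21 in all, of which 1 (the 5 libraries with at most 2 Y-linked reads) was added after seeing the data, as were the list counts without single libraries. The genes, lists and tests were chosen with earlier results of these data known. Named genes are all 10 targets, Gpc6, Trp53, the 5 genes closest to Cdkn1a and, per related list, the most abundant gene, those of highest and lowest fold change and up to 3 at an unadjusted p under 0.05. Positions and exon lengths are from GENCODE M21 (GRCm38), promoters from RefSeq. Each library is 1 brain, so the tests set the difference between groups against the spread between brains within the groups.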

Additional observations from a re-analysis of the deposited data

How the results depend on the processing

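Of the 10 targets, Ccng1, Bax, Bbc3, Trp53inp1 and Phlda3 stayed below 0 and Zmat3 above 0 under all 21 alternatives, and the adjusted calls of targets stayed at 0 in all but library weights. The other log2 fold changes reversed as follows. Mdm2 was -0.0017 with edgeR, -0.0008 with voom, -0.0385 with an equal upper quartile and -0.0120 with library weights, and -0.0216 to 0.063 with single libraries left out. Sesn2 was 0.23 with library weights. Cdkn1a was -0.16 to 0.44 with single libraries left out. Eda2r was 0.90 with DESeq2, 0.88 with edgeR, 0.064 with voom, 1.23 with library weights, 1.83 without the libraries with Y-linked reads, and -1.03 to 0.63 with single libraries left out. The causes were not tested. Genes at an adjusted p under 0.05 numbered 0 with limma, 4 with DESeq2 and 1962 with library weights, and 0 whichever single library was left out. Without adjustment, 689 genes had a p under 0.05, 1853 with DESeq2, 5105 with library weights, and 119 (without 3xCR replicate 4) to 1401 (without GPC6 replicate 2). The share of these that were higher in GPC6 tumors was 58.8%, and it was 69.8% with DESeq2, 46.9% with an equal upper quartile, 42.9% with voom and 37.7% to 66.2% with single libraries left out. Targets at an unadjusted p under 0.05 numbered 0 with limma, 1 with DESeq2 and 1 with edgeR, where 4.66%, 9.7% and 6.7% of all genes tested passed. There were 2 with library weights (Ccng1 and Bax), where 34.5% passed, and 1 without the Y-linked libraries (Eda2r), where 6.09% passed. The count was 0 to 1 with single libraries left out. It was Trp53inp1 without 3xCR replicate 3 (379 of 14803 genes passed) and Sesn2 without GPC6 replicate 3 (385 of 14759). It was Bax without GPC6 replicate 2 or 4 (1401 of 14831 and 1159 of 14800). With single libraries left out, the median log2 fold change of the targets ran from -0.61 (without 3xCR replicate 2) to -0.20 (without 3xCR replicate 4), and it was -0.10 with library weights and -0.15 without the libraries with Y-linked reads. Replicate numbers are shared between groups, but same-numbered libraries deviated with correlations of -0.19, 0.12 and 0.30, and 3 of 6 libraries correlated best with their own number, so the numbers were not taken to pair the tumors. With a replicate block, 678 genes and 0 targets had an unadjusted p under 0.05, and Cdkn1a was -0.16 and Eda2r 0.63. Eda2r, with 2 and 8 reads in 2 libraries, is limited by depth and drops out at a mean of at least 50, which leaves 9 targets.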
